A study of Homo sapiens with 4 samples.

Results

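The regions described here are the genic regions that had a STARR-seq peak in every one of the 4 libraries of the series. They were chosen by measured values: peaks of the 4 lists on chromosomes 1 to 22 and X were merged wherever they shared at least 1 bp, and a merged region was kept when it held a peak of each list and when its highest SHP1705 summit lay inside a protein-coding gene and in no pseudogene of the RefSeq table for GRCh38.p14. There were 963 such regions, 21.0% of the 4584 regions with a peak in all 4 lists and 0.431% of all 223513 merged regions. Of the other regions in all 4 lists, 167 had a summit that also lay in a pseudogene and 3454 had a summit in no protein-coding gene. The 963 members lay in 975 protein-coding genes, since 55 members had a summit inside several overlapping genes.

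STARR-seq was run in MDA-MB-231 cells, which come from a human breast tumour, with a plasmid library of sheared DNA of these cells. Before transfection the cells received SHP1705 at 10 µM, MG132 at 100 nM, both drugs at these doses, or DMSO as the vehicle, and polyA RNA was taken at 8 h. The series title names SHP1705 as a stabilizer of CRY2, a repressor of the circadian clock, and MG132 blocks the proteasome. Each treatment had 1 library, so every difference below compares libraries and not conditions, and no p-value is given. In such bulk RNA, a change in the number of transfected cells and a change in RNA per cell cannot be told apart.

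The header of each deposited list gave 118324303 fragments for SHP1705, 27289266 for MG132, 28331486 for SHP1705+MG132 and 29717604 for DMSO. On these chromosomes the lists held 85840 peaks for SHP1705, 69842 for MG132, 57174 for SHP1705+MG132 and 47822 for DMSO. Height is the greatest pileup, the number of fragments over one base, that any peak of a list reached in the region, per 1000000 fragments of that library. Intervals on a ratio of 2 heights are 95% Clopper-Pearson intervals and cover counting error only.

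In STARR-seq, a genomic fragment sits inside a reporter transcript, downstream of a minimal promoter, so that a fragment with enhancer activity raises the amount of its own RNA copy. Reporter copies are amplified from polyA RNA, which also holds the messenger RNA of the cell, and a fragment from an exon has the same sequence as the matching part of that messenger RNA. In polyA-selected RNA the 3′ end of a messenger RNA is often covered more densely than its start. How much of any height below was reporter RNA and how much was RNA of the gene itself was not tested, as the lists do not separate them. MDA-MB-231 is a line of mesenchymal, triple-negative character, known for high vimentin, fibronectin and collagen genes and for low hormone receptor and luminal genes.

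The genes with members were those of such a line in part. Of the 7 mesenchymal markers, VIM and FN1 each held 2 members, and SPARC, TGFBI, PLAU and CD44 each held 1, while AXL held none. Of the 6 luminal markers, KRT19 and CDH1 each held 1 member, and EPCAM, ESR1, GATA3 and FOXA1 held none. A gene without a member can still have peaks. EPCAM and ESR1 had peaks in all 4 lists, GATA3 in SHP1705 and MG132 only and FOXA1 in SHP1705 only, while AXL had no peak in MG132 or DMSO. The blood markers PTPRC, CD3E, MS4A1 and HBB and the liver markers ALB, APOA1 and TTR held none. The members in CDH1, the gene of E-cadherin, and in KRT19 thus lay in genes of luminal cells.

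A few members overlapped the promoter window of a listed gene start. No genome sequence was used here, so the sequence under the other peaks is not shown. The windows below run from 250 bases before to 50 bases after a listed gene start and come from RefSeq, build GRCh38.p14. The 7 windows that shared at least 100 bases with a member belonged to 6 members, and 1 window per member is shown. Capitals mark matches, on either strand, to the motifs of AP-1 (TGACTCA), the E-box (CACGTG), CRE (TGACGTCA), the GC box (GGGCGG), ETS factors (CCGGAAG), the TATA box (TATAAA), the CCAAT box, NRF1 or YY1, and sequences read 5′ to 3′ on the strand of the gene.

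RTN4, chr2:55050402-55050701, minus strand: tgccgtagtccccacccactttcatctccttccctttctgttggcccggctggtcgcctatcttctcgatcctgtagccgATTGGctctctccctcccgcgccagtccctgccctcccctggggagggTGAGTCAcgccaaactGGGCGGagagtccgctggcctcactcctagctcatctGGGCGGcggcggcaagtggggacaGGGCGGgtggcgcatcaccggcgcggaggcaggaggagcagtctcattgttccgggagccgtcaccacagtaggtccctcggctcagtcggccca
HSPB1, chr7:76302423-76302722, plus strand: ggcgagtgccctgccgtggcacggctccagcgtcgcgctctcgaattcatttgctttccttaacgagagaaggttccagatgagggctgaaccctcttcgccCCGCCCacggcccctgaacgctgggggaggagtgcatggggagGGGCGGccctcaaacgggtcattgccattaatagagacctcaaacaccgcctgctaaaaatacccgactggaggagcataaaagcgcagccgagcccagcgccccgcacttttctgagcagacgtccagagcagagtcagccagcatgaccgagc
HOOK2, chr19:12792301-12792600, minus strand: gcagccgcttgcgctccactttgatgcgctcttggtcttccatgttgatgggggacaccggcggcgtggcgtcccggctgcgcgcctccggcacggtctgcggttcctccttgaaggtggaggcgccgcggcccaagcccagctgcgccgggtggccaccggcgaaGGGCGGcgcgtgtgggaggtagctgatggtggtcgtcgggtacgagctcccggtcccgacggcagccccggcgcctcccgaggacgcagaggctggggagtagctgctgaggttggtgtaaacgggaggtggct
SFN, chr1:26862899-26863198, plus strand: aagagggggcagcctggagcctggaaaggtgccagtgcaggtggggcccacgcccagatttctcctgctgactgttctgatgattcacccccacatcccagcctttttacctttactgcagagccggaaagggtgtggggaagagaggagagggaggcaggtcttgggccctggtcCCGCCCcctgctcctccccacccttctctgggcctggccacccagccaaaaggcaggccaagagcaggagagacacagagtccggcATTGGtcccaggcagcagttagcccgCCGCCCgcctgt
CSNK1A1, chr5:149551390-149551689, minus strand: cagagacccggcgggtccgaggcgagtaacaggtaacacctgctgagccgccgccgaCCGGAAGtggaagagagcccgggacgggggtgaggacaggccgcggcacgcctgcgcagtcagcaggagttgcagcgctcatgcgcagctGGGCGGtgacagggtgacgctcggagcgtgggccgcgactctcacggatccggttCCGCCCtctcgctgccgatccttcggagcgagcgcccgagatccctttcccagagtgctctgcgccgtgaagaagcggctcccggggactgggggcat
NR2F2, chr15:96332315-96332614, plus strand: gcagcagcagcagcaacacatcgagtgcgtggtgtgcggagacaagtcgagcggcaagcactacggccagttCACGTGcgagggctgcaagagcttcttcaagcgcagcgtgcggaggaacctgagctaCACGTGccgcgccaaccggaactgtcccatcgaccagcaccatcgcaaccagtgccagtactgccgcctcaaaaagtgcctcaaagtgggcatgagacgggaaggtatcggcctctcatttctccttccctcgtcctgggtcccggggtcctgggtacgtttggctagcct

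The set is printed because only these members shared at least 100 bases with a promoter window. The shared bases numbered 110 in RTN4, 111 in HSPB1, 184 in NR2F2, 271 in SFN and 300 each in HOOK2 and CSNK1A1. A marked match can therefore lie outside the member, as the GC boxes of HSPB1 do. RTN4 makes an endoplasmic reticulum membrane protein, and its other window, not shown, held 2 GC boxes. The member over HOOK2, a microtubule linker, also lay in JUNB, an AP-1 factor. The window shown for RTN4 was the only one of the 7 with an AP-1 match, which lay outside the bases shared with the member. The NR2F2 window, in the gene of a nuclear receptor, was the only one with an E-box, and it held 2 matches. The SHP1705 summit of that member lay at -1650 bp from the nearest listed start, away from this window. Whether the letters of a window are coding sequence was not examined, so no match is read as a regulatory site. A GC box was found in 6 of the 7 windows, against 56.3% of all 22132 promoters of protein-coding genes in the table. The other shares over all promoters were 4.01% for AP-1, 8.34% for the E-box, 2.26% for CRE, 12.8% for ETS, 9.46% for the TATA box, 34.6% for the CCAAT box, 1.5% for NRF1 and 1.18% for YY1. Over the 1283 promoters of 791 genes that held a member, the GC box share was 67.3% and the E-box share was 9.51%, and the median GC content was 66.0%, against 62.3% over all promoters. A match is only a description of the letters.

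The 963 members were tall in SHP1705 and low in the other 3 lists. Median height per 1000000 fragments was 44.1 in SHP1705 (lowest 0.262, highest 1576), 1.76 in MG132 (0.440 to 247.5), 1.45 in SHP1705+MG132 (0.424 to 121.6) and 1.55 in DMSO (0.471 to 185.8). The middle 50% of members lay between 27.1 and 77.6 in SHP1705 and between 1.04 and 3.10 in DMSO. As raw pileups the medians were 5224 fragments in SHP1705, 48 in MG132, 41 in SHP1705+MG132 and 46 in DMSO, so that counting error was larger in the last 3 lists than in SHP1705. The SHP1705 list was the tallest for 905 members, MG132 for 23, SHP1705+MG132 for 16 and DMSO for 19.

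**Figure D1:**
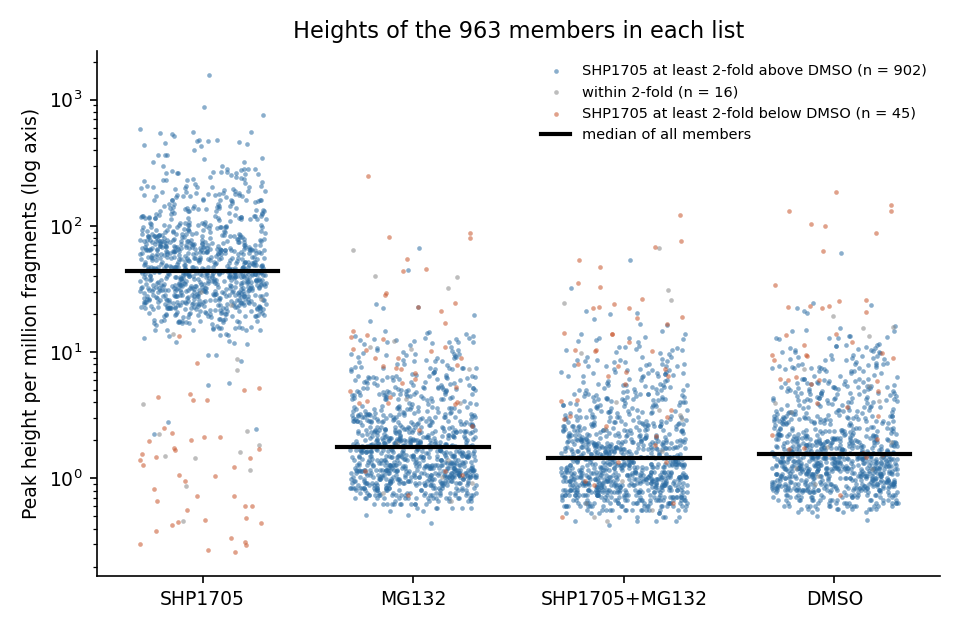
Each point is 1 of the 963 members, at its peak height per 1000000 fragments (log axis) in SHP1705, MG132, SHP1705+MG132 and DMSO, coloured by its ratio of SHP1705 over DMSO, and black lines are medians. The SHP1705 median of 44.1 stands above the medians of 1.76, 1.45 and 1.55, and the 45 members at least 2-fold lower in SHP1705 than in DMSO lie at the bottom of the SHP1705 column.

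Set against DMSO, 902 members (93.7%) were at least 2-fold higher in SHP1705, 45 (4.67%) were at least 2-fold lower and 16 lay between these limits. Over all 8597 regions with a peak in both lists, 24.6% were at least 2-fold higher and 69.9% at least 2-fold lower, a background given as description because the peaks of these lists chose the members. The median log2 ratio of SHP1705 over DMSO was 4.93 (30.6-fold), with a middle 50% from 4.53 to 5.33. With heights scaled by the median of all 4584 regions instead, it was 6.60, and 25 members in place of 45 were at least 2-fold lower in SHP1705. In the other 3621 regions of all 4 lists the median was -3.08, which is 8.43-fold lower in SHP1705, and 83.0% were at least 2-fold lower. Among those, 532 regions were at least 2-fold higher in SHP1705, and the summit of 505 of them (94.9%) lay in a pseudogene.

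The 902 members were selected on their ratio of SHP1705 over DMSO, so its size is a description. Their DMSO pileup was 0.795% of their SHP1705 pileup at the median, with a middle 50% from 0.608% to 1.02% and a whole range from 0.225% to 12.4%. It lay between 0.4% and 1.6% for 790 of them. The MG132 pileup was 0.784% and the SHP1705+MG132 pileup 0.673% of the SHP1705 pileup at the median. In the 532 other regions taller in SHP1705, mostly in pseudogenes, these medians were 0.837% for MG132, 0.738% for SHP1705+MG132 and 0.867% for DMSO. Across the 902 members, log2 heights in SHP1705 and DMSO had a Pearson r of 0.729 and a Spearman rho of 0.746, given as description, since the points share 2 libraries and were selected on their ratio.

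**Figure D2:**
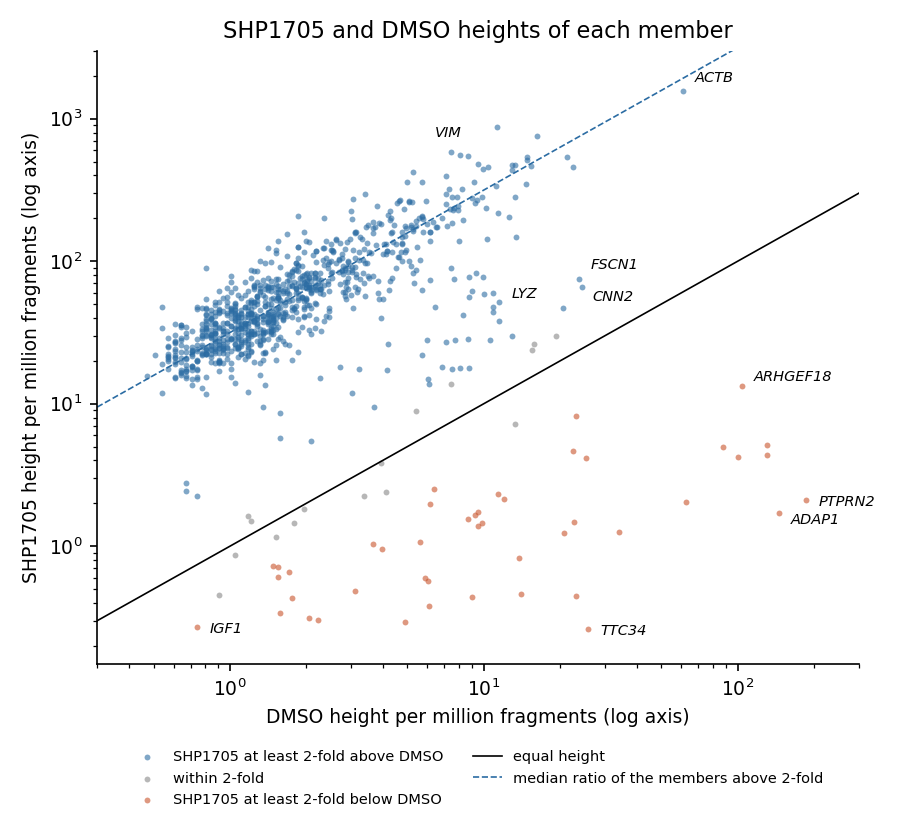
Each point is a member at its DMSO height (x) and SHP1705 height (y), both per 1000000 fragments on log axes, with the line of equal height drawn solid and the median ratio of the 902 members dashed. Most members follow the dashed line from low genes to ACTB, while PTPRN2, ADAP1, ARHGEF18 and TTC34 lie below the solid one.

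Whether a genic SHP1705 region was a member went with its height. Of 24201 genic SHP1705 regions below 1 per 1000000, 22 (0.0909%) had a peak in all 4 lists. The share was 0.262% between 5 and 10 per 1000000 (10 of 3819), 2.72% between 10 and 20, 30.7% between 20 and 50 (410 of 1334) and 67.8% between 50 and 100. At 100 per 1000000 or more it was 83.5% (177 of 212, Wilson 95% interval 77.9 to 87.9). The lowest pileup of any member was 31 in SHP1705, 12 in MG132, 12 in SHP1705+MG132 and 14 in DMSO.

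**Figure D3:**
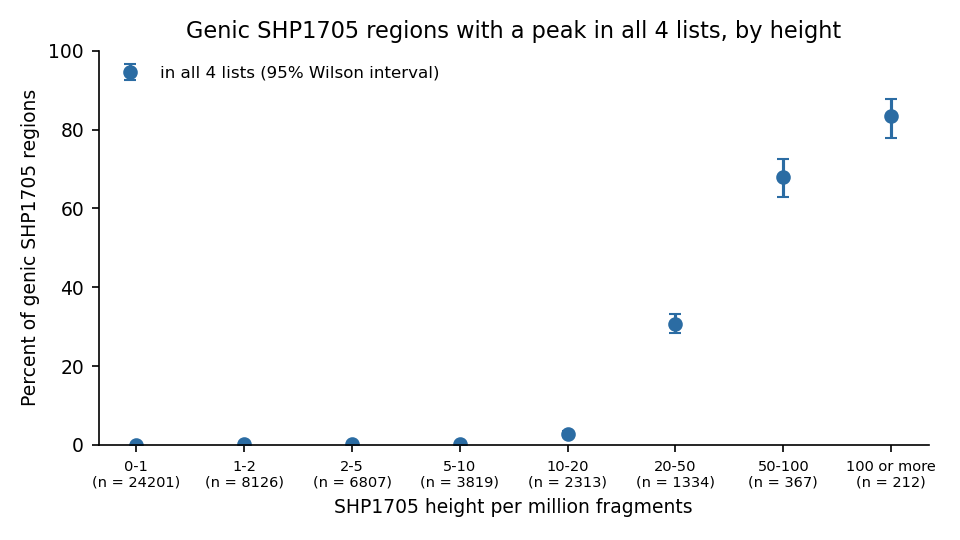
Percent of genic SHP1705 regions, with no pseudogene at the summit, that had a peak in all 4 lists (y), in bins of SHP1705 height per 1000000 fragments (x), with Wilson 95% intervals and the number of regions under each bin. The share stays below 3% up to 20 per 1000000 and reaches 83.5% at 100 or more.

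Members gathered at the ends of genes. Strand was known for 733 members that lay in 1 gene, and their SHP1705 summit was in the last 10% of the gene in 63.3% of cases (Wilson 95% interval 59.8 to 66.7), against 24.4% of 36255 other genic SHP1705 regions. Within 1 kb of the 3′ end lay 52.0% of members (48.4 to 55.6), against 11.5% of the other regions. The start of the gene showed the reverse, with 4.23% of members within 1 kb of the 5′ end, against 7.66% of the other regions. The median member gene was 25.8 kb long, against 83.0 kb for the other regions. Intervals do not cover that several members can share a gene.

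**Figure D4:**
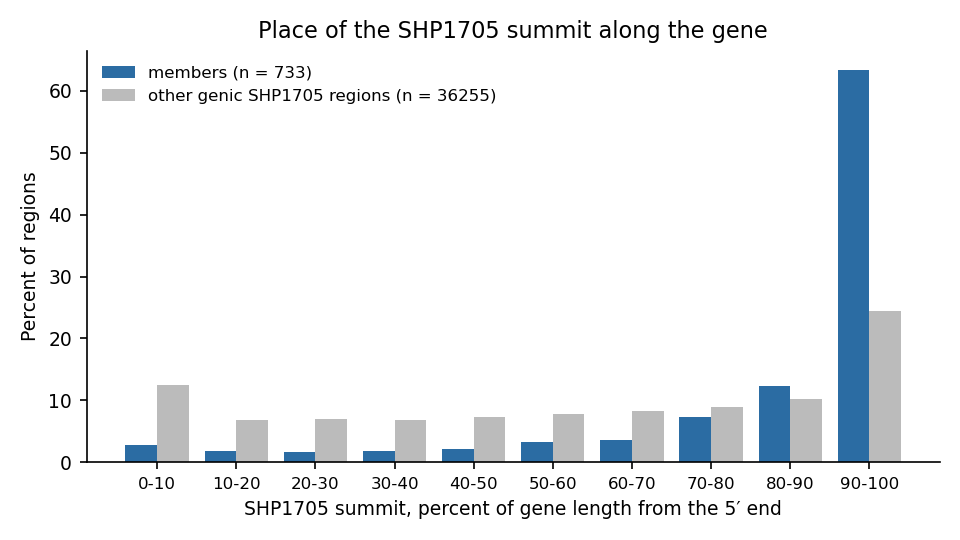
Percent of regions (y) in each 10% of gene length from the 5′ end (x), for 733 members and for 36255 other genic SHP1705 regions. The last 10% holds 63.3% of members and 24.4% of the other regions.

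The position differed between the members on either side of DMSO. Of 693 members at least 2-fold higher in SHP1705 with a known strand, 54.7% lay within 1 kb of the 3′ end. Of 32 members at least 2-fold lower in SHP1705, 1 did (3.13%), and their genes had a median length of 172 kb with the summit near mid-gene, at 0.51 of the length. The first 3 Mb of a chromosome held 8 of the 45 lower members (17.8%, Wilson 95% interval 9.29 to 31.3) and 35 of the 902 higher ones (3.88%). Only that end of each chromosome was counted. No share over the other regions is given, so these shares are a description of the members alone.

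Peaks of members were wider in SHP1705 than those of the other regions in all 4 lists. The highest peak had a median width of 1224 bp in SHP1705, 736 bp in MG132, 688 bp in SHP1705+MG132 and 744 bp in DMSO, against 559 bp in SHP1705, 613 bp in MG132, 593 bp in SHP1705+MG132 and 591 bp in DMSO in the other regions of all 4 lists. Width was not particular to the members: the SHP1705 median was 1391 bp in 519 genic regions that were at least 2-fold higher in SHP1705 than in DMSO but lacked a peak in another list. The caller accepted no peak narrower than the fragment size of 299 bp in SHP1705, 354 bp in MG132, 355 bp in SHP1705+MG132 and 346 bp in DMSO, so narrow peaks could be called in SHP1705 alone. The widest merged region, 5754 bp, lay in ARID5B, a gene of a DNA-binding protein, followed by MLEC, NUCKS1, AKAP12 and IL6ST, and the narrowest, 374 bp, lay in VIM. The MG132 summit lay within 50 bp of the SHP1705 summit in 49.1% of members, the SHP1705+MG132 summit in 46.9% and the DMSO summit in 49.8%.

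The tallest member in SHP1705 lay in ACTB, followed by PLAT and COL6A2. ACTB, the gene of beta-actin at chr7:5527166-5528730, reached 1576 per 1000000 in SHP1705, 66.5 in MG132, 53.8 in SHP1705+MG132 and 60.7 in DMSO, a ratio of SHP1705 over DMSO of 26.0 (24.8 to 27.2). PLAT, tissue plasminogen activator, stood at 880 in SHP1705, 12.3 in MG132, 11 in SHP1705+MG132 and 11.2 in DMSO, a ratio of 78.3 (70.3 to 87.4). COL6A2, a collagen VI chain, had 760 in SHP1705, 19.5 in MG132, 13.9 in SHP1705+MG132 and 16.2 in DMSO at chr21:46131933-46132820, a ratio of 47.1 (43.0 to 51.6). All 3 were far taller in SHP1705, and their other heights lay within 1.5-fold of each other. The ratios of PLAT and ACTB had intervals that did not overlap, so these 2 ratios differed by more than the counting error covered here.

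The next of the 10 tallest in SHP1705 lay in VIM (589), IGFBP7 (558), IGFBP4 (551), ACTG1 (539), GAPDH (537), CALR (512) and a second part of COL6A2 (477). GAPDH, a glycolytic enzyme, had 537 in SHP1705, 22.2 in MG132, 18.3 in SHP1705+MG132 and 21.3 in DMSO. CALR, a calcium-binding chaperone of the endoplasmic reticulum, had 512 in SHP1705, 14.6 in MG132, 12.6 in SHP1705+MG132 and 14.8 in DMSO. The greatest ratios of SHP1705 over DMSO were 112 (85.8 to 148) in the start of IGFBP4, 111 (74.7 to 174) in NR2F2 and 92.3 (70.0 to 124) in PITX1. IGFBP4 binds insulin-like growth factors and PITX1 is a homeobox factor. IGFBP5 and LOXL1 completed the top 5 with ratios of 90.2 and 89.3.

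In most genes there was 1 member (931 of 975 genes), 38 genes had 2, KRT8, COL6A2, COL6A3, EIF4G2 and EPB41L2 had 3, and FAT1 had 4. Of the KRT8 members, the one at chr12:52949124-52949598 also lay in KRT18 and counts for both genes. In COL6A2 the 3 members had SHP1705 heights of 760, 477 and 362, at 484, 6820 and 20536 bp from the 3′ end, and the matching DMSO heights were 16.2, 9.49 and 5.69. VIM, the intermediate filament of mesenchymal cells, had 589 in SHP1705 and 7.44 in DMSO near the start of the gene, against 100 and 5.08 near its end. The ratio was 79.2 (69.4 to 90.8) at the start and 19.7 (16.8 to 23.3) at the end of VIM, so members of the same gene could differ by more than counting error. FAT1, a protocadherin, had 1 member taller in DMSO (10.9) than in MG132 (1.39) and SHP1705+MG132 (3.46), and another taller in MG132 (9.56) than in SHP1705+MG132 (0.777) and DMSO (1.01). In its other 2 members these lists lay within 2-fold of each other.

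Gene lists, chosen with earlier results of these data known, held members at very unequal rates beside the 4.88% of all 19974 protein-coding genes with a member. Of 30 actin and microtubule genes, 26 held a member (86.7%), and so did 27 of 38 genes of mesenchymal identity and matrix, 12 of 17 of adhesion and 19 of 25 abundant RNA-binding genes. Lower counts were 9 of 18 glycolytic enzymes, 9 of 19 translation factors, 9 of 21 genes of ER folding and the ATF4 response, 8 of 22 keratin and luminal genes, 7 of 27 heat shock genes and 7 of 25 immediate early genes. Lower still, but above the share of all genes, were 4 of 22 NRF2 and redox genes (18.2%), 4 of 28 ribosomal protein genes (14.3%), 2 of 18 S100, annexin and galectin genes (11.1%) and 4 of 38 proteasome and ubiquitin genes (10.5%). Core clock genes had 1 of 21 (4.76%), blood and liver genes 1 of 22 (4.55%), cell cycle genes 1 of 28 (3.57%) and interferon response genes 0 of 26. Every member in these lists was at least 2-fold higher in SHP1705 than in DMSO, against 93.7% of all members.

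The 29 cytoskeleton members had median heights of 114 in SHP1705, 3.74 in MG132, 3.21 in SHP1705+MG132 and 3.5 in DMSO. TMSB4X, which binds actin monomers, stood at 470 in SHP1705, 22.7 in MG132, 13 in SHP1705+MG132 and 15.4 in DMSO. TPM4, a tropomyosin, had 321 in SHP1705, 9.67 in MG132, 6.74 in SHP1705+MG132 and 8.21 in DMSO. CFL1, the actin-severing cofilin, had 280 in SHP1705, 8.90 in MG132, 6.81 in SHP1705+MG132 and 7.47 in DMSO. The 34 matrix members were taller, with medians of 174 in SHP1705, 5.19 in MG132, 3.71 in SHP1705+MG132 and 4.71 in DMSO, and a median ratio of SHP1705 over DMSO of 43.8, against 32.2 for the cytoskeleton and 30.6 for all members. SPARC, a matrix glycoprotein, had 475 in SHP1705, 14.1 in MG132, 12.0 in SHP1705+MG132 and 13.3 in DMSO. FN1, fibronectin, had 268 in SHP1705, 11.8 in MG132, 9.07 in SHP1705+MG132 and 9.42 in DMSO in its taller member.

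The 9 keratin and luminal members were led by KRT8, with 281 in SHP1705, 13.9 in MG132, 10.9 in SHP1705+MG132 and 13.2 in DMSO. KRT19 followed with 217 in SHP1705, 12.7 in MG132, 8.58 in SHP1705+MG132 and 11.3 in DMSO. The median ratio of SHP1705 over DMSO across the 9 was 21.2. The list also held members in CLDN4, CDH1, CLDN3, XBP1 and MUC1, at 69.5, 41.7, 31.0, 30.0 and 23.5 in SHP1705. EEF1A1, the elongation factor that brings transfer RNA to the ribosome, had 455 in SHP1705, 23.9 in MG132, 21.2 in SHP1705+MG132 and 22.5 in DMSO. Near-identical copies or repeats exist for EEF1A1, KRT8, KRT18, ACTB, ACTG1, GAPDH and UBB among others, so heights at these members are uncertain where fragments align to several copies. LYZ, lysozyme, the sole member of the blood and liver list, had 51.5 in SHP1705, 12.8 in MG132, 10.5 in SHP1705+MG132 and 11.5 in DMSO, a ratio of 4.49 (4.02 to 5.02) that was far below the median.

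Of genes in the pathways that the drugs act on, 4.76% of the core clock list and 10.5% of the proteasome and ubiquitin list held a member, beside 4.88% of all protein-coding genes. BHLHE40, a clock repressor, was the single core clock gene with a member, at 23.2 per 1000000 in SHP1705, 1.14 in MG132, 0.988 in SHP1705+MG132 and 1.38 in DMSO. Its MG132 ratio to DMSO was 0.823 (0.499 to 1.35) and its SHP1705+MG132 ratio 0.716 (0.427 to 1.19), so neither differed from DMSO beyond counting error. Of the proteasome and ubiquitin list, UBB, a polyubiquitin gene, had 472 in SHP1705, 44.9 in MG132, 11 in SHP1705+MG132 and 12.9 in DMSO, so that MG132 stood above SHP1705+MG132 and DMSO. The ratio of MG132 over DMSO for UBB was 3.48 (3.10 to 3.91) and that of SHP1705+MG132 over MG132 was 0.245 (0.216 to 0.278). PSMD7, a lid subunit of the proteasome, had 19.4 in SHP1705, 0.916 in MG132, 1.20 in SHP1705+MG132 and 1.31 in DMSO. SQSTM1, a gene of the same list described below, went the other way from UBB, with 3.48 in MG132 against 8.01 in DMSO. UBB therefore does not stand for the list.

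Between MG132 and DMSO most members were near equal. At least 2-fold higher in MG132 were 73 members (7.58%), beside 13.4% of all 8873 regions with a peak in both lists, and 54 (5.61%) were at least 2-fold lower, beside 16.4%. The median log2 ratio was 0.12 (middle 50% from -0.11 to 0.33), and it was 0 when heights were scaled by the median of all 4584 regions instead of per 1000000 fragments. PPP1R15A, which reverses the phosphorylation of eIF2 in the stress response, had 35.3 in SHP1705, 6.30 in MG132, 2.22 in SHP1705+MG132 and 1.01 in DMSO, a ratio of MG132 over DMSO of 6.24 (4.22 to 9.54). Of the 9 members of the ER folding and ATF4 list, only this 1 was at least 2-fold higher in MG132, and the median ratio of that list was 0.997. CD44, a hyaluronan receptor, had 55.9 in SHP1705, 6.38 in MG132, 1.06 in SHP1705+MG132 and 1.28 in DMSO, a ratio of 4.99 (3.49 to 7.28). In SHP1705+MG132 PPP1R15A was 2.2-fold above DMSO (1.40 to 3.53), while CD44 stood at 0.828 of DMSO (0.495 to 1.37).

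The greatest ratio of MG132 over DMSO, 32.9 (23.6 to 47.2), was in the overlapping genes LOC102724250 and LOC105378947 at chr1:597558-598545, with 1.51 in SHP1705, 39.8 in MG132, 0.635 in SHP1705+MG132 and 1.21 in DMSO. DPP6, a potassium channel subunit, followed with a ratio of 16.4 (13.6 to 20.004), then NCKAP5, DCDC1 and IRAG1. Heat shock genes did not stand out: the 7 members had a median log2 ratio of MG132 over DMSO of 0.12, the same as all members, and none was past 2-fold. HSPA5, the chaperone of the endoplasmic reticulum, had 282 in SHP1705, 9.23 in MG132, 7.69 in SHP1705+MG132 and 7.87 in DMSO. HSPB1, a small heat shock protein whose window is printed above, had 137 in SHP1705, 3.92 in MG132, 3.07 in SHP1705+MG132 and 2.89 in DMSO.

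Between SHP1705+MG132 and DMSO, 60 members (6.23%) were at least 2-fold higher, beside 13.1% of all 8158 regions in both lists, and 72 (7.48%) at least 2-fold lower, beside 15.8%. The median log2 ratio was -0.17. EPB41L2, a membrane skeleton protein, had 40.6 in SHP1705, 1.14 in MG132, 32.0 in SHP1705+MG132 and 1.08 in DMSO near the end of the gene, a ratio of SHP1705+MG132 over DMSO of 29.8 (20.9 to 43.8). TWF1, an actin-binding twinfilin, had 20.1 in SHP1705, 0.953 in MG132, 19.9 in SHP1705+MG132 and 0.740 in DMSO, a ratio of 26.9 (17.6 to 43.3). Both stood in SHP1705+MG132 near their SHP1705 height.

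EGR1, an immediate early transcription factor, had 143 in SHP1705, 2.64 in MG132, 16.6 in SHP1705+MG132 and 2.62 in DMSO, a ratio of SHP1705+MG132 over DMSO of 6.32 (4.96 to 8.14). GPI and SLC2A1, a glycolytic enzyme and a glucose transporter, had ratios of 6.29 (4.54 to 8.91) and 5.15 (3.23 to 8.56), while GAPDH had 0.860 (0.764 to 0.967). CSNK1A1, a casein kinase whose promoter window is shown above, had 74.4 in SHP1705, 1.32 in MG132, 5.51 in SHP1705+MG132 and 1.35 in DMSO, a ratio of 4.09 (2.87 to 5.94). NCL, nucleolin, was tall in SHP1705+MG132 in 1 of its 2 members, with 29.6 in SHP1705, 1.03 in MG132, 14.6 in SHP1705+MG132 and 1.58 in DMSO there. The other, nearer the 3′ end, had 76.2 in SHP1705, 5.06 in MG132, 2.82 in SHP1705+MG132 and 4.34 in DMSO.

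Set against MG132 alone, SHP1705+MG132 was at least 2-fold higher in 57 members (5.92%), beside 15.3% of 9333 regions in both lists, and at least 2-fold lower in 83 (8.62%), beside 13.6%. The median log2 ratio was -0.28. Against SHP1705 alone, SHP1705+MG132 was at least 2-fold lower in 903 members (93.8%), beside 22% of 8833 regions in both lists, and at least 2-fold higher in 45 (4.67%), beside 72.2%. The median log2 ratio was -5.11 over members and 2.83 over all these regions, and nothing is read from it, because the members were chosen by peaks of the same lists. With 1 library each, treatment and library cannot be told apart.

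Some members were tall in DMSO beside MG132 and SHP1705+MG132. At least 4-fold above both other lists, with SHP1705 left aside, were 23 members in MG132 (2.39%), 24 in SHP1705+MG132 (2.49%) and 23 in DMSO (2.39%). Over all 5696 regions with a peak in these 3 lists the shares were 1.7% for MG132, 1.76% for SHP1705+MG132 and 1.91% for DMSO. CNN2, a calponin, had 66.2 in SHP1705, 1.69 in MG132, 1.48 in SHP1705+MG132 and 24.5 in DMSO, so that MG132 was 14.5-fold below DMSO (10.8 to 20.003). The DMSO peak there was narrow, spanning 478 bp, while those of the other lists spanned 1118 to 1396 bp. Its fold over local background was 24.3, and theirs ran from 7.27 to 10.6. That ratio therefore sets peaks of different shape against each other, which its interval does not cover. FSCN1, the actin-bundling protein fascin, had 74.6 in SHP1705, 4.32 in MG132, 1.06 in SHP1705+MG132 and 23.6 in DMSO. Its other member had 66.1 in SHP1705, 1.10 in MG132, 1.09 in SHP1705+MG132 and 1.25 in DMSO, so it was near equal in MG132, SHP1705+MG132 and DMSO. GNB2, a G protein subunit, had 47.3 in SHP1705, 1.14 in MG132, 1.13 in SHP1705+MG132 and 20.5 in DMSO. The DMSO peak was also the narrowest of the 4 lists at GNB2, with a width of 457 bp, and at the first FSCN1 member, with 490 bp. JUN, an AP-1 factor, had 74.0 in SHP1705, 1.58 in MG132, 1.55 in SHP1705+MG132 and 6.16 in DMSO. SQSTM1, an autophagy receptor, had 138 in SHP1705, 3.48 in MG132, 3.07 in SHP1705+MG132 and 8.01 in DMSO. All 5 were taller in SHP1705 than in DMSO.

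**Figure D5:**
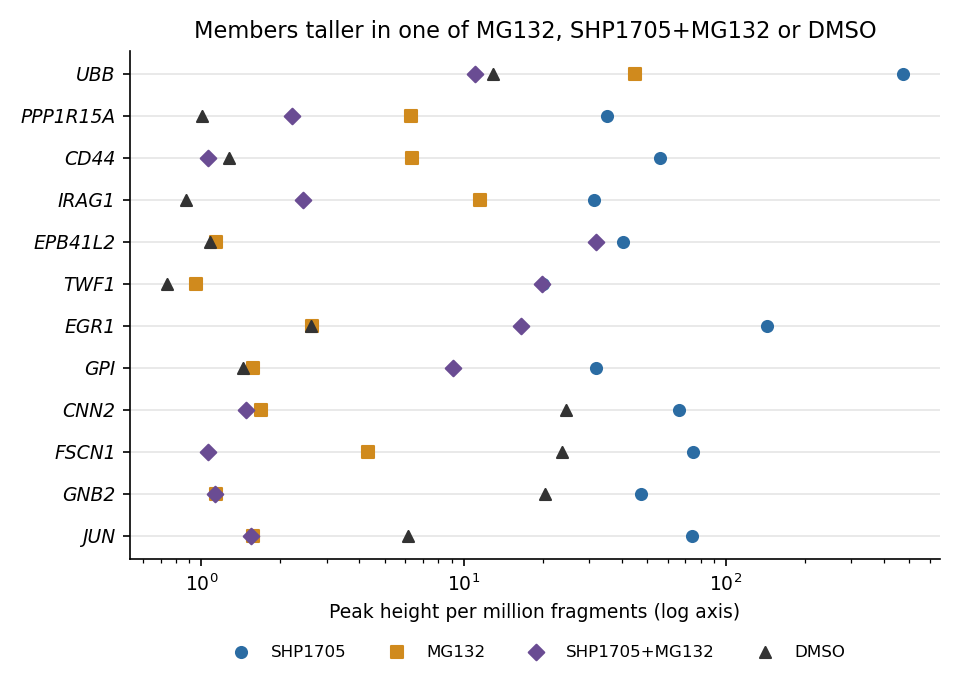
Peak height per 1000000 fragments (log axis) in each of the 4 libraries for 12 members that were taller in MG132, in SHP1705+MG132 or in DMSO than in the other 2 of these. UBB, PPP1R15A, CD44 and IRAG1 are tallest of the 3 in MG132, EPB41L2, TWF1, EGR1 and GPI in SHP1705+MG132, and CNN2, FSCN1, GNB2 and JUN in DMSO; at TWF1 the SHP1705 point lies under the SHP1705+MG132 point.

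The 45 members lower in SHP1705 than in DMSO were taller in all other lists at the median. Their median height was 1.23 in SHP1705, 8.98 in MG132, 10.2 in SHP1705+MG132 and 9.46 in DMSO, and their median merged width was 1125 bp. PTPRN2, a receptor phosphatase of secretory vesicles, had 2.12 in SHP1705, 6.12 in MG132, 5.54 in SHP1705+MG132 and 186 in DMSO at chr7:158523216-158524833. This was the tallest DMSO height of all members, and the SHP1705 height was 87.6-fold below it (77.2 to 99.8). The SHP1705 peak of 457 bp and the tallest DMSO peak of 479 bp did not overlap there. That ratio therefore compares different places within 1 merged region. In 13 of the 45 lower members (28.9%) the SHP1705 and DMSO summits lay within 50 bp of each other, against 51.2% of the 902 higher ones. The median distance was 126 bp in the lower members and 48 bp in the higher ones, so other ratios here may also compare different places. ADAP1, an ARF GTPase activator, had 1.70 in SHP1705, 79.6 in MG132, 75.5 in SHP1705+MG132 and 145 in DMSO. DIP2C had 4.39 in SHP1705, 247.5 in MG132, 53.9 in SHP1705+MG132 and 130 in DMSO, with its greatest height in MG132.

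DUX4, a homeobox gene carried in tandem repeats near a chromosome end, had 5.16 in SHP1705, 87.5 in MG132, 122 in SHP1705+MG132 and 130 in DMSO, and copies of that repeat may have shared fragments. ARHGEF18, a RhoA exchange factor, had 13.4 in SHP1705, 82.2 in MG132, 46.8 in SHP1705+MG132 and 104 in DMSO. A second member of PTPRN2 had 4.21 in SHP1705, 43.9 in MG132, 24.0 in SHP1705+MG132 and 100.5 in DMSO. PRKAR1B, a regulatory subunit of protein kinase A, had 5.0 in SHP1705, 24.6 in MG132, 7.31 in SHP1705+MG132 and 87.2 in DMSO, and so was also tallest in DMSO. The lowest ratio of SHP1705 over DMSO was in TTC34, with 0.262 in SHP1705, 10.9 in MG132, 2.15 in SHP1705+MG132 and 25.7 in DMSO. This is 98.0-fold lower in SHP1705 (68.5 to 145). The SHP1705 pileup there was 31 fragments, the lowest of any member, with a fold of 2.27 over local background. That peak was 408 bp wide, against 1120 bp in DMSO, and its summit lay at another place than the DMSO summit. Of the 10 tallest DMSO members, ACTB was the only one higher in SHP1705 than in DMSO. SNX29, a sorting nexin, had the greatest lowest fold over local background in the 4 lists, 26.9, with heights of 4.18 in SHP1705, 22.6 in MG132, 22.4 in SHP1705+MG132 and 25.3 in DMSO.

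Other members of high lowest fold were REG4, GNAS, H3-5 and ANXA5, each taller in SHP1705. The 5 members whose 4 heights lay closest together were in DNMT3B, CHD1L with FMO5, AGBL1, AGBL4 and MUC12, and their highest and lowest heights differed by 2.15-fold to 2.62-fold. DNMT3B, a DNA methyltransferase, had 0.718 in SHP1705, 0.733 in MG132, 1.34 in SHP1705+MG132 and 1.55 in DMSO. In 4 of these 5 every height was below 2 per 1000000.

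At the threshold of the rule, the summits nearest inside a gene end were in HDGF with MRPL24, LRRC75A, and PHLDB1 with TREH. The nearest non-members lay outside POTEG by 87 bp, TAF11L9 by 313 bp and TAF11L5 by 428 bp, and of 3101 other regions of all 4 lists outside genes these 3 lay within 1 kb. The weakest peaks that kept a region in all 4 lists had −log10 q values of 2.18 in SHP1705 (MAN1B1 with LOC124902313), 2.25 in MG132 (RNF11), 2.0 in SHP1705+MG132 (SERINC3) and 2.49 in DMSO (ADCY6 with SPMIP11). In 740 members the DMSO pileup was under 100 fragments, so their ratios to DMSO carry wide intervals.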

How the data were processed

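The data were 4 STARR-seq libraries of MDA-MB-231 cells, 1 per treatment. The submitters' processing notes name hg38, which has the primary chromosomes of GRCh38.p14, and the tools Bowtie2, FastQC, MACS2 and Trimmomatic. MACS 2.2.6 called the peaks of each library separately, per the file headers, with a q limit of 0.01, all duplicates kept, no control and a background over 10000 bp. The deposited signal of a peak is its pileup at the summit, unscaled. The deposited fold is the ratio of pileup to local background, and the deposited −log10 q and −log10 p values are the peak caller's, which the authors gave per peak. The fold and −log10 q served only to rank or filter peaks within a list.

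Heights were the greatest pileup per region and list, per 1000000 header fragments. Genes, gene ends, strands and promoters came from RefSeq tables. Strand was known for 733 of the 908 members in 1 gene, and 791 of 975 genes had a promoter entry. Python 3.11.15, pandas 2.3.3, numpy 2.4.6, scipy 1.17.1 and matplotlib 3.10.9 were used, and merging, height and position steps were tested on simulated data. Shares have Wilson 95% intervals and ratios of heights Clopper-Pearson 95% intervals. PCR copies are not independent molecules, so both cover counting error only. A member was called higher or lower past 2-fold, and no test was run.

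Named were the 10 tallest members in SHP1705 and in DMSO, the 5 highest and 5 lowest ratios of each comparison, the 5 widest and 5 narrowest regions, the genes with most members, members in the gene lists (445 names, all matched), the 3 nearest to each side of a gene end, the 5 with the greatest lowest fold and the 5 of most equal height. The 12 members of the plot of single lists, and the examples taken from those groups, were picked after their values were seen. The members and the lists were chosen with earlier results of these data known. Alternatives covered merging, peak strength, list length, width, the summit that decides the gene, scaling, fold limits and gene-end distance. Exons, introns and untranslated regions were not analysed here. The result for 1 member gene of the proteasome and ubiquitin list is not reported here.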

Additional observations from a re-analysis of the deposited data

Results flagged for a closer look

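The same drug step had medians of opposite sign in the 2 pairs of libraries, a difference that was not tested because each treatment had 1 library. Adding SHP1705 went with a median log2 ratio over members of 4.93 for SHP1705 over DMSO, and with -0.28 for SHP1705+MG132 over MG132. Adding MG132 went with a median of 0.12 for MG132 over DMSO, and with -5.11 for SHP1705+MG132 over SHP1705. The 0.12 is near no change, and it was 0 when heights were scaled by the median of all regions in the 4 lists. The members were chosen by peaks of these same lists. Over all regions with a peak in both lists compared, whether members or not, the medians involving SHP1705 alone had the opposite sign, at -2.78 for SHP1705 over DMSO and 2.83 for SHP1705+MG132 over SHP1705. Those of the other contrasts were -0.07 for SHP1705+MG132 over MG132 and 0.0075 for MG132 over DMSO. The differences in the 2 pairs both rest on the SHP1705 library, which had 118324303 fragments, against 27289266 to 29717604 in the others. No value separates the treatment from the library.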

How the results depend on the processing

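No paired analysis was possible because each treatment had 1 library, and for the same reason no replicate could be left out. When every list was shortened to the 47822 strongest peaks of the shortest list, 130 members were left of 963, since a shorter list holds fewer regions by construction. The other 5 ways of choosing members gave 889 to 957. With heights scaled by the median of all regions in the 4 lists, which moved the SHP1705 ratio over DMSO by 1.67 and the MG132 ratio by -0.12 on the log2 scale, the median of SHP1705 over DMSO was 6.60 in place of 4.93, and 25 members were at least 2-fold lower in SHP1705 in place of 45. A limit of 1.5-fold gave 120 members higher in MG132 and 140 lower in SHP1705+MG132 than in DMSO. A limit of 4-fold gave 31 higher and 32 lower in MG132, and 36 higher and 33 lower in SHP1705+MG132. The share of summits within 1 kb of either gene end was 54.0%, and it was 73.0% within 2 kb and 57.4% from the DMSO summit. Merged regions had a median width of 1288 bp in place of the width of the highest peak in MG132, SHP1705+MG132 and DMSO. Of 46 alternatives to the main counts and medians, 32 stayed close to the value reported, meaning within 1.5 times for counts, ratios and widths and inside the 95% interval for the share near gene ends, as did all 36 for the gene lists, and no median changed sign, though that of MG132 over DMSO became 0 under median scaling. Low pileups in MG132, SHP1705+MG132 and DMSO limit how well a single ratio is known.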
